A study of Drosophila melanogaster with 2 samples.

Results

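Distal peaks in later introns, with a summit over 500 bp from every transcription start site, past the first intron of every transcript and below a limit on signal, made up 907 of the 7157 Ets98B-eGFP peaks measured in fly pupae, or 12.7% (95% Wilson interval 11.9 to 13.5, counting error only). The assay was ChIP-seq, in which chromatin bound by a protein is recovered and sequenced, on whole 2-day Drosophila melanogaster pupae. The animals expressed a fusion of Ets98B with eGFP, a green fluorescent protein, and chromatin was recovered with an antibody against GFP after shearing by sonication. Both samples, numbered biological replicates 1 and 2, belonged to 1 group of the strain Ets98B-GFP, so the data describe where peaks lay and hold no comparison of conditions. The labels give the insertion as targeting Ets98B and do not say whether the unmodified gene was also present, and each sample was of whole animals, so a peak cannot be assigned to a cell type.

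The 907 regions were chosen by position and strength, from the conservative peak set that the authors made from both replicates. Of its 7157 peaks, 4067 had a summit, the highest point of the peak, more than 500 bp from every transcription start site (TSS) of any annotated gene. The signal value, the strength the authors' peak caller gave each peak, was below a limit that leaves out the strongest peaks for 3710 of these, and 2625 had a summit in an intron of a protein-coding transcript and in no exon. The final 907 also lay in no transcript's first intron. By position alone, with no limit on signal, 983 peaks qualified (13.7%). The same positional rule took 829 of 5850 peaks (14.2%) from the thresholded list of replicate 1 and 1051 of 7963 (13.2%) from that of replicate 2, a mean of 13.7% ± 0.688 (SD, n = 2).

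Introns are transcribed and spliced out, and in Drosophila they carry many enhancers, DNA elements that regulate transcription from promoters at a distance. First introns are on average long and rich in such elements, while later introns lie deeper in the gene. ETS factors, the family of Ets98B, bind DNA through a winged helix domain that reads a short core with the letters GGAA or GGAT. Their preferred sites in vitro extend this core with C bases on its left side. Which core Ets98B prefers was not examined here, and GGAT is called the alternative core only as a label. The pupal stage is governed by pulses of the steroid ecdysone, whose receptor acts through a cascade of nuclear receptors and other transcription factors.

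The reference sequence from 50 bp before to 50 bp after the summit is given for 10 of the regions, to show the sequence at the summits of regions the results turn on. The first 6 are the strongest region in each of 6 genes with many such regions, and the last 4 are regions that hold a named sequence word. Letters are from the Release 6 reference assembly, plus strand, 5′ to 3′, and capitals mark each GGAA, the ETS core, and each GGAT, its alternative, on either strand (as TTCC and, for the alternative, ATCC on the minus strand), as well as the named word in the last 4. The windows lie at chrX:3046109-3046209 (kirre), chrX:7293206-7293306 (CG1677), chrX:1979821-1979921 (Hr4), chr3L:17978535-17978635 (Eip75B), chr3L:2582462-2582562 (msn), chr3L:2824152-2824252 (Tet), chr3R:30005500-30005600 (Nlp, the long ETS word CCGGAA), chrX:5981054-5981154 (Grip, the GATA factor word GATAAG), chr3L:2533856-2533956 (Spn, the GAGA factor word GAGAG) and chr3L:4722036-4722136 (RhoGEF64C, the TATA box word TATAAA), all on dm6.
kirre: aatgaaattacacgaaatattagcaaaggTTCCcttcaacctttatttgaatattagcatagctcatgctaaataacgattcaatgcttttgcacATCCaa
CG1677: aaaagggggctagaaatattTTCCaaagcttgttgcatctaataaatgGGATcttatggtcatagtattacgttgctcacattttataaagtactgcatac
Hr4: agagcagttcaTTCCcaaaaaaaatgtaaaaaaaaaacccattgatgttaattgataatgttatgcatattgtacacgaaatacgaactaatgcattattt
Eip75B: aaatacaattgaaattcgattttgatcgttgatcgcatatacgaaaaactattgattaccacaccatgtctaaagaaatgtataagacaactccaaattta
msn: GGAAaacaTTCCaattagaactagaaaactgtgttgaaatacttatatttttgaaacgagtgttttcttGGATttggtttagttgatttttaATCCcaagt
Tet: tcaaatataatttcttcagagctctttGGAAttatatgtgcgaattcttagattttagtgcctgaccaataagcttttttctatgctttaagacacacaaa
Nlp: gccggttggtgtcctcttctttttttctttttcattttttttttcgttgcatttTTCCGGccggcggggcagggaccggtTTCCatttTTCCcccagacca
Grip: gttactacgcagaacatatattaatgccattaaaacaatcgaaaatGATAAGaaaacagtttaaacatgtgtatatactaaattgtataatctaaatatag
Spn: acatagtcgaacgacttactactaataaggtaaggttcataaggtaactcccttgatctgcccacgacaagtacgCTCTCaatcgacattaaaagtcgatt
RhoGEF64C: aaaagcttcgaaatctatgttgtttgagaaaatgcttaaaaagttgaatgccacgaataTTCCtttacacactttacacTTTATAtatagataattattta

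Most of these windows are visibly AT-rich, but the Spn window, at 40.6% GC, was near the 40.0% of all allowed later-intron sequence. The window in Hr4 had a GC content of 26.7% and held 1 ETS core, next to a run of A. The window in msn had 28.7% GC, with 2 cores and 2 alternative cores. The Eip75B window, at 28.7% GC, held neither core on either strand, although its signal was 105 in replicate 1 and 79.9 in replicate 2. The Nlp window, at 48.5% GC, was 1 of only 8 among the 907 with the long word CCGGAA.

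Signal values are given as a description, since the limit on them was part of the choice of regions. The scale of these values is unstated. Over the 907 regions it ran from 12.3 to 352, with a median of 123 and quartiles of 90.4 and 177. The 1718 distal peaks in first introns below the same limit had a median of 123 as well. The maximum score of 1000 for reproducibility was reached by 662 regions (73.0%), against 73.6% of first-intron peaks. The values nearest to the limit were 348 in CG1677, 350 in RhoGEF64C and 352 in Klp98A on the inside, and 356 in overlapping introns of CG32816 and CG3777, 357 in mtgo and 362 in trol on the outside. On the side of distance, the nearest regions inside were 508 bp from a TSS in osp and 510 bp in both NaCP60E and Nckx30C, and the nearest peaks outside were at 477 bp in egr, 484 bp in ed and 486 bp in Pino. In all, 76 later-intron peaks lay at or above the limit, with signal values from 356 to 3728 and a median of 449.

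Most regions were also in each replicate's own lists, which follows in part from how they were chosen. The conservative set was made from both replicates with a limit on reproducibility, so these shares are a description and not separate support. A ranked list of candidate peaks, with no threshold, held a summit within 100 bp for 850 regions (93.7%) in replicate 1 and 866 (95.5%) in replicate 2. The stricter thresholded lists held 630 (69.5%) and 698 (77.0%), and 532 regions were in both (58.7%, interval 55.4 to 61.8). Replicate 2 alone supported 166, replicate 1 alone 98, and 111 (12.2%) were in neither and rest on the 2 replicates combined. The corresponding share in both lists was 57.4% in first introns and 59.7% in the whole set, while all 76 later-intron peaks at or above the limit were in both lists. Among 830 regions with a signal value in both replicates, the median was 59.9 in replicate 1 and 66.1 in replicate 2, and replicate 2 was the higher in 472 (56.9%). Across these regions, which share both libraries and are not independent samples, Spearman's rank correlation between the replicates was 0.668 and Pearson's r of log2 values was 0.696.

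**Figure D1:**
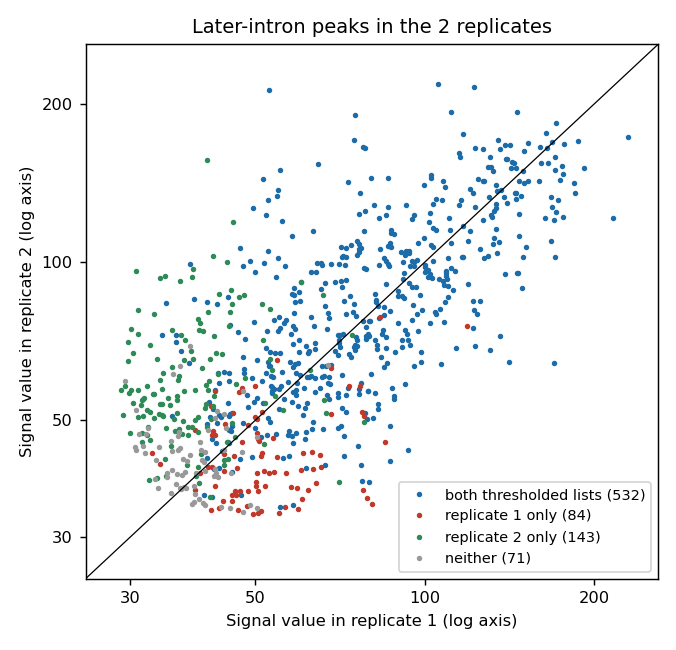
Signal value of 830 later-intron regions in replicate 1 (horizontal, log axis) and replicate 2 (vertical, log axis), 1 point per region, with the line of equal values. Colours show which thresholded lists held the region: 532 were in both, 84 in that of replicate 1 only, 143 in that of replicate 2 only and 71 in neither, and regions outside both lists lie at low values on both axes.

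The ranked list made from both replicates shows how far later-intron candidates reached the conservative set. Of all 38590 ranked peaks on the main chromosome arms, 7157 were in the conservative set, or 18.5%. For ranked later-intron peaks below the signal limit, it was 907 of 6557 (13.8%, interval 13.02 to 14.69). The share was 18.0% for distal first-intron peaks, 28.0% within 500 bp of a TSS, 13.9% between genes and 3.35% in exons away from a TSS, against 17.0% of all ranked peaks below the limit. Later-intron candidates thus stood between exonic and first-intron candidates, close to those between genes.

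Later introns carried fewer peaks for their length than first introns. The positional rule allows 27.1 Mb, or 19.8% of the main arms, and the 907 regions made 33.4 peaks per Mb. In the replicates' own lists the density was 30.5 per Mb in replicate 1 and 38.7 in replicate 2 (34.6 ± 5.78, SD, n = 2). First introns away from a TSS, 20.8 Mb in all, had 82.8 peaks per Mb, with 78.6 and 98.1 in the replicates (88.4 ± 13.8). Sequence between genes had 25.3 (24.6 and 26.3 in the replicates), and windows around a TSS had 121 (104 and 163). The replicate values of later and first introns did not overlap. This difference was not tested, and the 2 classes also differ in distance from a TSS, which is taken up next.

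Distance from a TSS was compared in 6 bins, and first introns had the higher density in 6 of 6, in the conservative set and in each replicate. From 500 to 1000 bp the density was 43.9 per Mb in later introns and 112 in first introns, and from 2000 to 5000 bp it was 38.9 and 78.5. The ratio of first to later introns over the 6 bins ran from 1.82 to 3.01, in replicate 1 from 1.71 to 3.21 and in replicate 2 from 1.65 to 3.16. Within later introns the density was 37.3 per Mb from 5000 to 10000 bp and 29.8 from 10000 to 20000 bp. In replicate 1 it went from 46.8 in the nearest bin to 30.2 from 5000 to 10000 bp, and in replicate 2 from 57.05 to 38.4. Beyond 20000 bp it was 11.1 per Mb, from 37 regions, against 33.5 from 20 peaks in first introns. The ordering was also seen in each of 6 bins of intron length and each of 6 bins of distance to the nearest exon, where the ratio ran from 1.64 to 6.02 and from 1.83 to 4.85.

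**Figure D2:**
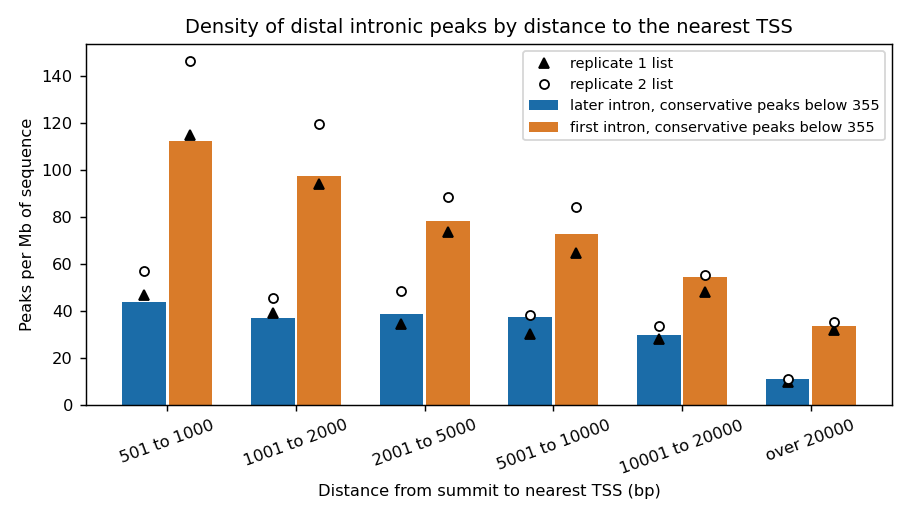
Peaks per Mb of allowed sequence (vertical) by distance from the summit to the nearest TSS (horizontal, in bp) for later and first introns. Bars are the conservative peaks below the signal limit, and the triangle and circle are the lists of replicates 1 and 2 with no limit on signal. In every bin both replicate values of first introns lie above both of later introns, and the later-intron bar drops to 11.1 per Mb beyond 20000 bp.

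Density within later introns varied with intron length and with distance from an exon. Introns of up to 1000 bp held 11.8 regions per Mb, those from 2000 to 5000 bp held 44.4, those from 10000 to 20000 bp held 51.1, and those over 20000 bp held 27.5. The first 100 bp beside an exon held 6.95 per Mb, from 23 regions, whereas the density was 33.1 from 100 to 500 bp and 47.9 from 1000 to 2000 bp. It was 26.0 beyond 5000 bp from an exon. The median region lay 1702 bp from an exon, 4857 bp from a TSS (quartiles 2293 and 9407.5) and in an intron of 12947 bp. The medians over all allowed bases were 1559 bp, 6081 bp and 14088 bp.

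Regions were counted by the lowest intron number among the transcripts that cover the summit, which by the rule is at least 2. By this count 569 regions (62.7%) lay in intron 2, 176 in intron 3, 129 in introns 4 to 6 and 33 in intron 7 or later. Taking the lowest number favours intron 2. The allowed sequence was not divided by intron number or by owner of the nearest TSS, so these shares show no preference. The last intron of a transcript held 82. The nearest TSS belonged to a host gene, one whose intron holds the summit, for 408 regions (44.98%), to another protein-coding gene for 226 (24.9%), to a non-coding gene for 146 (16.1%) and to an annotated transposable element for 127 (14.0%). When only TSSs of protein-coding genes were considered, the nearest was the host's for 562 regions (62.0%, interval 58.8 to 65.1) and another gene's for 345 (38.0%). The median distance was 6391 bp to the nearest protein-coding TSS and 9543 bp to the nearest TSS of the host. The host gene of a region is therefore a place in the genome and not a statement of which gene the site may regulate. Transposable elements counted as genes, so the rule kept summits out of their exons and more than 500 bp from their TSSs. Overlap was thus limited in advance, and 1 peak overlapped an annotated transposable element.

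The 5 regions farthest from any TSS lay in 3 genes, in introns of 13254 bp (hth), 15982 bp (mamo) and 88633 bp (mgl). The extreme was a region in hth, which encodes a homeodomain cofactor of Hox proteins, 47653 bp from the nearest TSS (chr3R:10560732-10560833), with signal values of 72.6 in replicate 1 and 55.9 in replicate 2. The next 4 were in mgl, a gene for an endocytic receptor of the LDL receptor family, and mamo, which encodes a zinc finger transcription factor. The mgl regions were at 44609 bp (32.9 and 56.2 in the replicates) and 43413 bp (53.7 and 46.2), and the mamo regions at 43440 bp (47.3 and 57.7) and 42757 bp (40.7 and 52.7). Only the hth region among these 5 was in both thresholded lists.

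The X chromosome had the highest density of later-intron peaks. It held 222 regions at 48.2 per Mb, with 48.4 in replicate 1 and 54.0 in replicate 2. The densities on 3L, 2L and 2R were 35.7, 35.2 and 35.0 per Mb. On 3R there were 196 regions at 25.02 per Mb, with 21.6 and 29.7 in the replicates. Chromosomes 4 and Y held none, on 0.196 and 0.657 Mb of later-intron sequence. In first introns the X stood at 89.1 and 3R at 79.6 per Mb, a narrower spread. The sex of the pupae is not given in the labels, and its part in the density on the X was not tested.

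Later-intron regions were spread unevenly over introns. Of 540 introns with at least 1 region, 362 had 1, 102 had 2 and 76 had 3 or more, so that 545 regions lay in an intron with at least 1 other. The distance to the nearest other conservative peak of any kind had a median of 2814 bp, with 214 regions (23.6%) within 1000 bp and 137 (15.1%) more than 10000 bp away. First-intron peaks were closer together, with a median of 1738 bp and 30.7% within 1000 bp. Some neighbours may be 1 site described more than once, which was not tested. In all, 63 regions (6.95%) overlapped another conservative peak, and their median signal was 76.3 against 125.4 for the others. Merging overlapping regions left 877. The most crowded introns were a 73902 bp intron of CG1677 with 14 regions, a 70622 bp intron of kirre with 9, and introns of Eip75B, Eip74EF, ftz-f1 and rdx with 8 each. The intron of Pdcd4, only 3467 bp long, had 6, but 4 of these 6 overlapped another.

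At the level of genes, 445 of 7566 protein-coding genes with any allowed sequence held a region, or 5.88%. The lists of replicates 1 and 2 gave 413 and 473 genes. A single region was found in 255 genes, 86 had 2, 104 had 3 or more, and 43 had 5 or more. Genes with a region had long introns: they had a median of 11154 bp of allowed later-intron sequence, and those without had 267 bp. Of 603 genes with at least 10000 bp, 238 held a region (39.5%).

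Genes with a later-intron region often had other peaks too. A peak within 500 bp of a TSS was present in 249 of the 445 (56.0%), while 27.1% of all 7566 genes had one. Seen from the other side, 12.2% of the genes with a TSS peak held a later-intron region. Within classes of equal later-intron length, the share with a TSS peak was 40.0% to 57.7% of the genes with a region and 24.1% to 38.9% of all genes. First-intron peaks were present in 170 of the 445 (38.2%), compared with 10.7% of all. Of the genes with a first-intron peak, 21.0% held a later-intron region. These first-intron shares were not divided by length. Median allowed later-intron sequence was 11154 bp in genes with a region and 300 bp over all genes. None of these differences was tested.

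The gene with the most regions was kirre, which encodes an immunoglobulin-domain adhesion receptor needed for the fusion of muscle precursors. Its 394149 bp on the X held 17 regions, with 20 by position in each replicate, and 11 of the 17 were in both thresholded lists. Its regions had a median signal of 164, and the strongest (chrX:3046033-3046277) reached 216 in replicate 1 and 121 in replicate 2. Other genes lie within kirre introns: 1 region was 560 bp from the TSS of w, the white eye-colour transporter, and another was 4453 bp from that of rst, the adhesion receptor most closely related to kirre. The long central intron held 9 regions between 3005953 and 3053451, with signals from 64.2 to 314.

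CG1677 came next with 15 regions, most of them around genes nested in its large second intron. By the nearest protein-coding TSS, 7 were closest to brk, the transcriptional repressor of Dpp target genes, 5 to unc-119, a lipid-binding trafficking factor, 2 to CBP and 1 to Atg5, an autophagy gene. The 4 strongest of the 5 beside unc-119 formed a row at 750 to 2997 bp from its TSS. One of these (chrX:7293148-7293430) was the region with the highest lower replicate value of all 907, at 229 in replicate 1 and 173 in replicate 2. The 7 nearest to brk had conservative signals from 95.7 to 273 and lay 1166 to 7285 bp from its TSS. The position of 12 of the 15 was supported by both thresholded lists.

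Among signalling and chromatin genes, msn and Tet had 8 regions each. The gene msn encodes a Ste20-family kinase that acts upstream of JNK in dorsal closure. All 8 msn regions were in both thresholded lists, their median signal of 229 was the highest of the 12 genes with most regions, and they lay 1885 to 15635 bp from the nearest TSS. The strongest (chr3L:2582392-2582632) had 187 in replicate 1 and 170 in replicate 2. Tet encodes an enzyme that oxidises methylated bases in nucleic acids. Its strongest region (chr3L:2824072-2824320) had 172 and 131, and 4 of its 8 were in both lists, with conservative signals from 71.8 to 316.

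Of the rest of the 12, 3 are nuclear receptor genes described with the ecdysone cascade, and the others are of several kinds. The gene ed, for the adhesion protein Echinoid, had 8 regions in each replicate by position as well as 8 in the conservative set, from 100.8 to 284 in signal. The Hedgehog target rdx, which encodes a substrate adaptor of a ubiquitin ligase, had 8 regions in 1 intron of 52543 bp, with 6 by position in replicate 1 and 13 in replicate 2. Glut4EF, a transcription factor gene, and CG46467 share the same introns and so the same 8 regions, with 4 and 9 in the replicates. The 8 regions listed for twi, the mesodermal bHLH factor, ranged from 71.7 to 227, lay far from its own TSS in long annotated transcripts, and 4 of the 8 are shared with CG42741. Together the 12 genes held 108 regions, with shared ones counted once.

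**Figure D3:**
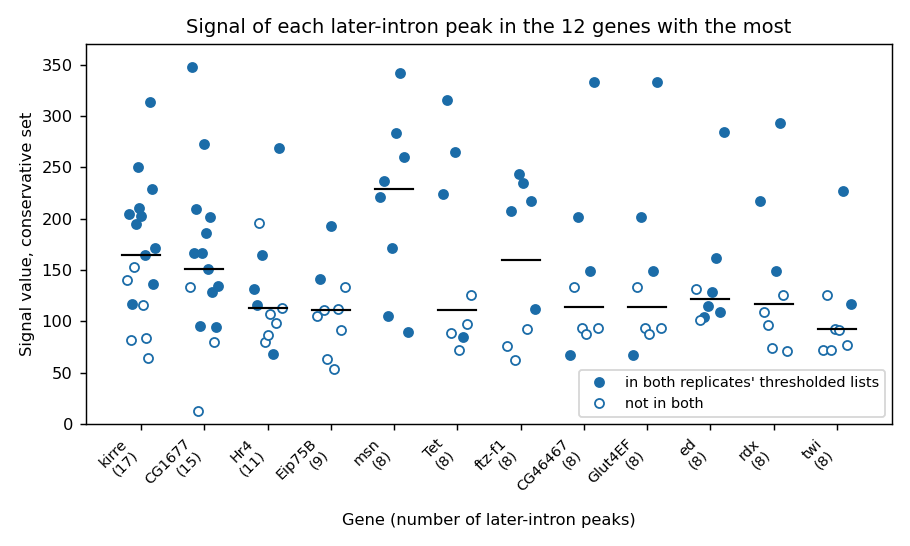
Signal value in the conservative set (vertical) of each later-intron region in the 12 genes with the most, 1 circle per region, with a bar at the median. Filled circles were in the thresholded lists of both replicates and open circles were not. The msn circles are all filled and have the highest median, 229, and CG46467 and Glut4EF show the same 8 regions.

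Of 20 gene lists, the ecdysone cascade had the largest share of genes with a later-intron region, a ranking that was not tested. At least 1 region was present in 10 of its 18 genes with allowed sequence (55.6%, interval 33.7 to 75.4), compared with 5.88% over all genes, and 10 and 11 genes had one by position in the replicates. Its genes are long, with a median of 13857.5 bp allowed, but among genes with at least 10000 bp it was 9 of 10, against 238 of 603. The 55 regions made 180 per Mb of these genes' later introns, compared with 33.4 overall. The density depended on the replicate: 128 per Mb in replicate 1 and 249 in replicate 2, both above the 30.5 and 38.7 for all later introns. The list was drawn up with earlier results of these data known, so its count is a description.

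Hr4, a nuclear receptor gene of the cascade that acts at the onset of metamorphosis, had 11 regions in its introns 2 to 4. Its strongest (chrX:1979742-1979961) had a signal of 127 in replicate 1 and 143 in replicate 2, and 5 of its 11 were in both thresholded lists. By position replicate 1 gave 9 and replicate 2 gave 11. Eip75B, a haem-binding nuclear receptor induced early by ecdysone, had 9 regions, 8 of them in a single intron of 23400 bp. Of the 12 genes with most regions the replicates differed most here, with 5 by position in replicate 1 and 17 in replicate 2, and only 2 of the 9 were in both thresholded lists. The region chr3L:17978487-17978653 had the highest Eip75B signal, 105 in replicate 1 and 79.9 in replicate 2.

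The nuclear receptor ftz-f1, which gives tissues the competence to respond to the late prepupal ecdysone pulse, had 8 regions in 1 intron of 33674 bp. The 4 strongest (conservative signals 207 to 244) each had a higher value in replicate 2, as with 86.1 and 145 at chr3L:18783604-18783749. Eip74EF, an ETS factor and early ecdysone target, had 8 regions in an intron of 31734 bp, with 4 by position in replicate 1 and 13 in replicate 2. Its strongest region (chr3L:17578475-17578571) had 59.9 in replicate 1 and 87.9 in replicate 2. In tai, which encodes a coactivator of the ecdysone receptor, 7 regions fell in 1 intron of 42174 bp. Of these chr2L:9207206-9207434 had 136 in replicate 1 and 72.5 in replicate 2, while chr2L:9203469-9203606 had 41.1 and 157, so the replicates did not rank the 2 sites alike.

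Further down the cascade the counts were smaller. Eip93F, a transcription factor that specifies adult fates, had 5 regions, and the strongest (chr3R:21993023-21993199) had 134 in replicate 1 and 116 in replicate 2. The ecdysone receptor gene EcR itself had 3, of which chr2R:6134540-6134823 had 160 and 143. Hr39 had 2, Eip78C 1 and Eip63E 1. The other 8 genes of the list with allowed sequence held none. The list of nuclear receptors overlaps this one and had 8 of 17 genes with a region, including 6 of 6 with at least 10000 bp, at 228 per Mb (166 and 290 in the replicates).

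In each of the 5 growth and patterning pathways the share of genes with a region was above the 5.88% of all genes, and the density was above the 33.4 per Mb of all later introns. The share was above 5.88% in every list but Dpr and DIP families and ribosomal proteins. Median allowed sequence was 660 to 4021 bp in these 5 lists and 300 bp over all genes. Among genes with at least 10000 bp, 238 of 603 held a region. The counts for such genes were 3 of 5 in receptor tyrosine kinase signalling, 4 of 6 in Notch and 3 of 4 in Wnt. They were 1 of 2 in Hippo and 1 of 1 in BMP and Hedgehog. In receptor tyrosine kinase signalling, 7 of 22 genes held a region, at 99.2 per Mb (93.4 and 117 in the replicates), led by the kinase Raf with 6, the insulin receptor InR with 3, and Pvr, the PDGF and VEGF receptor relative, and the phosphatase csw with 2 each. One Raf region lay 2059 bp from the TSS of the nested insulin-like peptide gene Ilp6, with 41.6 in replicate 1 and 50.7 in replicate 2. In the BMP and Hedgehog list 3 of 17 did, at 166 per Mb (203 and 259 in the replicates), and 6 of its 9 regions were in shn, a zinc finger partner of Smad proteins, within 7703 bp of allowed sequence. Of the shn regions, chr2R:11194644-11194863 was the strongest, with 146 and 95.2. In the Notch list 4 of 13 held a region, at 65.9 per Mb (87.8 and 132), with 7 in the coactivator mam, for which replicate 1 gave 7 by position and replicate 2 gave 17. The Wnt list had 4 of 18 at 70.4 per Mb (75.4 and 80.4), with 5 regions each in the receptor genes fz and arr and 3 in fz2, and the Hippo list had 2 of 12 at 36.8 per Mb (64.4 in both), with 2 regions each in the cadherin ds and the kinase wts. The ETS family list had 2 of 8, Eip74EF with 8 regions and pnt, the nuclear effector of EGF receptor signalling, with 1.

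Neuronal families had long later introns and few regions. The Dpr and DIP families, cell-surface partners that match neurons during wiring, had a region in 1 of 30 genes, DIP-alpha, although 17 of the 30 had at least 10000 bp of allowed sequence. Their density was 1.79 per Mb, with 2 peaks by position in replicate 1 and 0 in replicate 2. Ion channels and receptors had a region in 3 of 26 genes, or 3 of 17 with at least 10000 bp, at 4.50 per Mb (4.50 and 2.999 in the replicates). The synapse list had 3 of 19 at 8.80 per Mb. Axon guidance genes, by contrast, had regions in 9 of 27, with 5 in the phosphatase Ptp10D and 2 each in trio, NetB and NetA, at a density below that of all later introns in both replicates (24.8 and 26.4 against 30.5 and 38.7).

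Adhesion and RNA-binding genes differed in density, with similar shares of genes. Of the cadherin and adhesion list 11 of 23 genes had a region, with 4 each in Nrg, Cad87A and Fas2 and 3 in caps, at 47.7 per Mb (39.8 and 43.8 in the replicates). RNA-binding and splicing genes had 11 of 24, with 5 in Rbfox1, 4 in heph, 3 in sm and 2 in msi, at 23.0 per Mb (20.9 and 28.2), and their median allowed sequence of 18118.5 bp was the longest of the lists. The zinc finger and BTB list had 7 of 23, with 8 regions in mamo and 6 in luna, and the cytoskeleton list had 8 of 23, with 5 in RhoGEF64C and 4 in spir. Muscle genes had 4 of 20 (rols with 4), homeobox genes 2 of 26 (hth with 7), and Polycomb and trithorax genes 2 of 20 (Trl with 2). Ribosomal protein genes had 0 of 20, on introns so short that the median was 80.5 bp.

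**Figure D4:**
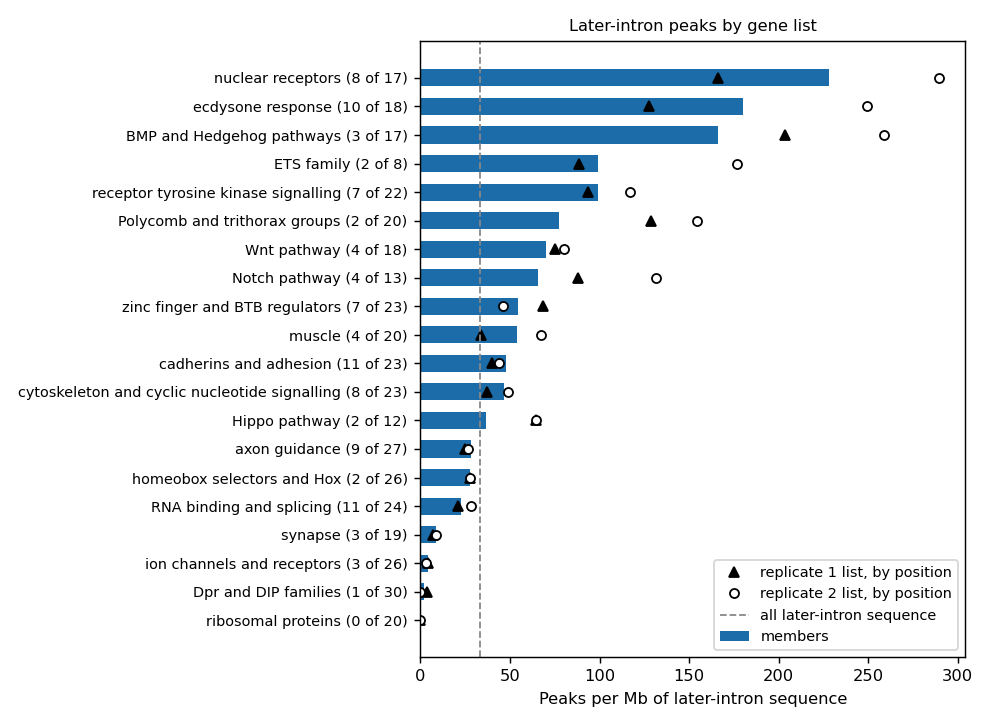
Later-intron peaks per Mb of the allowed sequence in 20 gene lists (horizontal), with bars for the conservative regions below the signal limit and a triangle and a circle for the lists of replicates 1 and 2. Numbers in brackets are genes with a region of genes with allowed sequence, and the dashed line is the 33.4 per Mb of all later introns. Nuclear receptors and the ecdysone response lie to the right of the line in both replicates, and Dpr and DIP families, ion channels and synapse genes to its left.

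The most reproducibly strong regions were in genes of several kinds. Ranked by the lower of the 2 replicate values, the region in CG1677 beside unc-119 was followed by 1 in the kinesin gene Klp98A (chr3R:27555042-27555272, 171 in replicate 1 and 184 in replicate 2). The regions in msn, in haf (168 and 169) and in Reck (177 and 167), an inhibitor of metalloproteases, came after these. CG12535 had 165 in both replicates, RhoGEF64C had 164 and 176, and CG8420 had 160 and 166. The remaining 4 were in osp (171 and 158), Septin4 (161 and 155), nompA (165 and 154) and dy (175 and 152). The genes nompA and dy encode zona pellucida-domain proteins of the apical extracellular matrix, at mechanosensory organs and in the wing. All 12 were in both thresholded lists.

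The summits in later introns were poor in G and C. Mean GC content was 35.1% ± 9.96 (SD over 907 regions) in the window of 50 bp to either side of the summit and 41.5% in windows 500 bp to each side, a difference of -6.40 percentage points, and the summit was the richer in 28.2% of regions. Tiles of all allowed later-intron sequence had 40.0%. In the list of replicate 1 the difference was -8.24 points and in that of replicate 2 it was -3.82. First-intron peaks had 36.3% at the summit and 40.8% beside it. In finer windows of 51 bp, the GC content over the 907 was 34.7% at the summit, rose to 45.4% and 45.2% at 200 bp to either side, and settled near 41% beyond 500 bp. The summits thus sat in a narrow AT-rich dip between 2 GC-richer shoulders. No control library was analysed here, and the part of base composition in recovery and mapping of fragments was not tested.

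**Figure D5:**
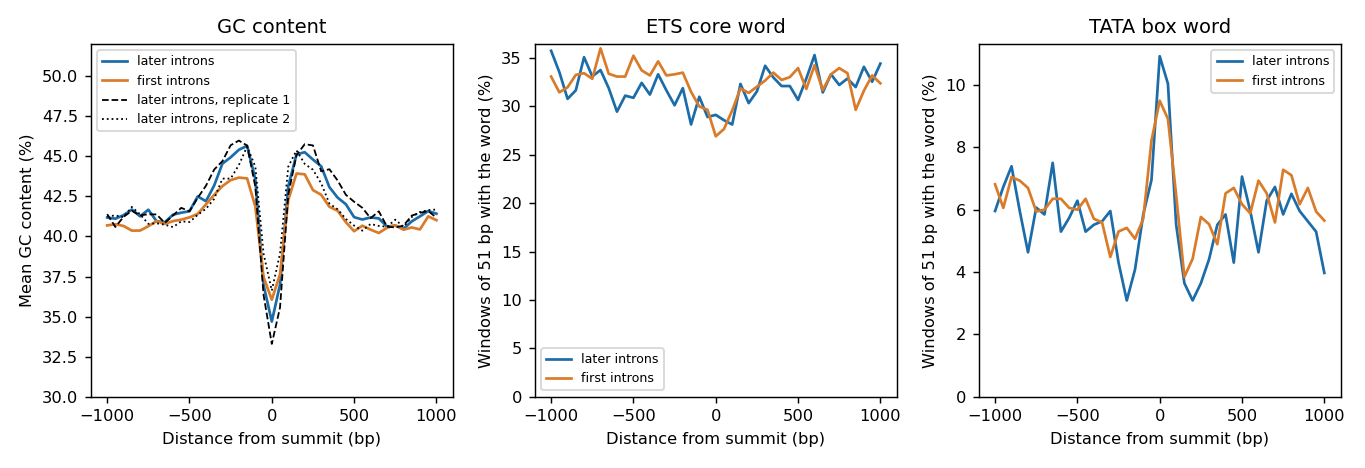
Mean GC content (left, in %, axis from 30), and the share of 51 bp windows with the ETS core word (middle) and the TATA box word (right), by distance from the summit in bp. Lines are later-intron regions and first-intron peaks, with replicates 1 and 2 as dashed and dotted lines on the left. GC content of later introns drops to 34.7% at the summit between GC-richer shoulders, the TATA box word peaks at 10.9%, and the ETS core word does not peak.

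The ETS core was no more frequent at the summits than beside them. GGAA, the core, was found on either strand in 445 of 907 summit windows (49.1%, interval 45.8 to 52.3), 53.4% of flanking windows and 56.1% of tiles, and the difference of -4.30 points from the flanks was within counting error on 1 of the 2 sides. In the replicates' lists the summit share was 49.9% and 49.1%. GGAT, the alternative core, was in 31.6% of summits and 36.9% of flanks. Its shares were 34.1% and 35.2% in the list of replicate 1 and 30.7% and 35.9% in that of replicate 2. The longer words that match preferred ETS sites in vitro were rare: CCGGAA, the long ETS word, was in 0.882% of summits and 2.37% of flanks, and CCGGAT, its alternative, in 0.331% and 1.49%. The CCGGAT summit share rests on 3 regions. For CCGGAA the summits and flanks had 1.69% and 2.17% in replicate 1 and 0.761% and 1.95% in replicate 2. The gap for CCGGAT was smaller in the replicates' lists, with 0.965% and 1.33% in replicate 1 and 1.24% and 1.33% in replicate 2. First-intron peaks gave 46.6% for the core at the summit and 55.7% beside it. A word is a match of letters and says nothing of binding by itself, and words rich in G and C become rarer as GC content drops, whose part here was not tested.

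Of 22 words searched on both strands, 7 differed between summit and both flanks by more than counting error. Counting error here is the 95% interval of the paired difference over regions, with no allowance for the 22 words searched. The 7 are thus a description and not the outcome of a test. TATAAA, the TATA box word, was in 19.5% of summits (interval 17.1 to 22.2), 11.8% of flanks and 13.05% of tiles, with 19.8% and 17.6% at the summits of the replicates. AAAAAAAA, the A run, was in 15.3%, 8.77% and 6.99%, with 13.5% and 15.98% in the replicates. Both words hold only A and T, and GC content was 35.1% at the summits against 41.5% in the flanks. The part of this composition in the 2 words' shares was not tested, and a match of letters is not evidence of a promoter. The other 5 were rarer at the summit: both long ETS words and the alternative core given above, CANNTG, the E-box bound by bHLH factors, with 33.6% against 42.1% in flanks, and TGTGGT, the Runt word, with 2.54% against 4.91%. In replicates 1 and 2 the E-box was in 34.7% and 34.3% of summits, against 41.3% and 40.2% of flanks. The Runt word was in 3.74% and 4.28% of their summits, against 4.70% and 5.28% of flanks. At first-intron peaks the Runt word did not differ, with 4.48% at the summit and 4.45% in flanks. In first introns the TATA box word was as frequent, with 19.4% at the summit and 12.2% in flanks. Each long ETS word contains its core, so these shares are not independent.

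GAGAG, the word of the GAGA factor that opens chromatin, was in 14.1% of summits and 10.9% of flanks. In 4 equal classes of signal, from the lowest up, its share was 19.8% (interval 15.2 to 25.5), 12.8% (9.04 to 17.7), 12.8% and 11.0%. The first 2 intervals overlap, and signal was part of the choice of regions, so no trend is read from this split. The ETS core also varied over the classes, with 45.4%, 58.6%, 49.1% and 43.2%. The replicates went opposite ways for GAGAG, with 11.6% at the summits and 12.8% in the flanks of replicate 1 and 16.1% and 11.9% in those of replicate 2. GATAAG, the GATA factor word, was in 4.52% and 3.80%. AGGTCA, the half-site of nuclear receptors, was in 1.43% of summits and 2.26% of flanks over all 907 regions, and was not counted apart for ecdysone-response genes. TAATTA, the homeodomain word, was in 7.06% and 7.33%.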

How the data were processed

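Peak lists from 2 samples of 1 group were analysed. The authors deposited them on dm6, per the labels; aligner, peak caller and read totals are unstated (not given in the sources used here), so depth is unknown. The deposited signal is the caller's value per peak. The deposited score scales the irreproducible discovery rate (IDR) of each peak up to 1000, and the lowest in the conservative set, 830, corresponds to an IDR of 0.01. Signal tracks were not used, and 16 columns that hold values of compared lists were not used.

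Genes came from Ensembl release 115, with its transposable elements counted as genes, and sequence from the Release 6 reference; peaks and genes lay within its arm lengths. Regions had a signal value below 355 in the conservative set. They were matched to a replicate's list by summits within 100 bp. Replicate signal values are from the ranked lists, which carry no threshold. GC content and words were counted in 101 bp centred on the summit and on points 500 bp away, and in abutting tiles of the allowed sequence. Gene names follow a fixed rule: the 12 genes with most regions, the 12 regions with the highest lower replicate value, the 5 farthest from a TSS, up to 4 genes per list, and 3 on each side of both limits; other genes were named after their values were seen. The rule, the members and the lists were chosen with earlier results of these data known. No test was run over regions, which are not replicates. Wilson intervals cover counting error only, as do the 95% intervals of paired differences between summit and flank shares. Alternatives changed the list, score, distance, windows, flanks, match and first-intron rule, and left out each replicate. Python 3.11.15, NumPy 2.4.6, pandas 2.3.3 and SciPy 1.17.1 were used, and the counting code was checked on simulated data.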

Additional observations from a re-analysis of the deposited data

How the results depend on the processing

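No paired analysis was possible because the samples form 1 group and no result comes from a test. With the positional rule applied to the list of 1 replicate at a time, the share of later-intron peaks was 13.2% to 14.2%, the density 30.5 to 38.7 per Mb, the genes 413 to 473, the median TSS distance 4341 to 4545 bp, the median exon distance 1491 to 1665 bp, the spacing 1988 to 3290 bp, the share also in the other replicate's list 57.5% to 72.6%, the GC difference -8.24 to -3.82 points and the ETS core difference -4.76 to -2.90 points. With no upper limit on signal the share was 13.7%. Beyond 1000 bp from every TSS the share was 11.6%, the TSS distance 5351.5 bp and the exon distance 1929 bp. With the other series-level list the density was 41.7 per Mb, support by both replicates 47.0% and the core difference -2.92 points. With the maximum score only the density was 24.4 per Mb, the TSS distance 4567 bp, the spacing 3836 bp and the support 77.3%. The core difference was -1.65 points in windows of 51 bp and -6.06 points against flanks at 1000 bp. Some of these shifts follow from the setting, as a higher distance limit drops the nearest regions and the maximum score keeps only some. The cause of the other shifts was not tested. The other planned values of these measures moved by less than the replicate SD. So did those with transposable elements left out of the annotation, an alternative chosen after seeing the data. For the other words, 91 of 252 values moved by the replicate SD or more, and 15 values of 8 words changed sign, none of them among the 7 words that differed from both flanks by more than counting error. Without replicate 2 the GAGA factor word was -1.27 points from its flanks, against 3.20 for the 907 regions. Depth was unknown and limits how firmly weak regions can be read.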
